A study of Mus musculus with 4 samples.

Results

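The genes described here are the C-type lectin genes of the mouse whose symbol begins with Clec and a number. They were taken by symbol from the deposited table, which gave 31 genes of the 22222 in it. The tumours were keratoacanthomas, which can regress on their own, and all mice had received the carcinogen DMBA for 20 weeks. In 2 mice they were taken 1 week after DMBA had been stopped, and in 2 other mice at week 0, with DMBA going on. Each library is 1 mouse and holds RNA of cells gated for Tomato and for P-cadherin, a cadherin of basal keratinocytes. The labels name neither the driver of Tomato nor the strain or age of the mice.

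C-type lectins share a protein fold that in many members binds sugars in the presence of calcium. Several receptors of the family sit on macrophages, dendritic cells and neutrophils, where they recognise fungal and bacterial sugars or material from damaged cells. Activating members signal through the kinase Syk, either by a motif of their own or through the adaptors FcR gamma (Fcer1g) and DAP12 (Tyrobp), and on to Card9. Others carry inhibitory motifs that recruit the phosphatases encoded by Ptpn6 and Ptpn11. The symbol also covers genes that are no such receptors, among them secreted proteins, an endothelial membrane protein and an endosomal protein.

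By role the members fall into 7 groups. The Dectin-2 cluster holds 9 of them, 4 that are activating (Clec4n, Clec4d, Clec4e, Clec4b1) and 5 DCIR and related genes. The Dectin-1 cluster holds 6, the Clec2 family 6, other myeloid and liver lectins 4, secreted proteins 4, and Clec14a and Clec16a are the remaining 2. In the RefSeq gene table (GRCm38.p6) 23 of the 31 lie on chromosome 6, and Clec12a, Clec12b, Clec1b, Clec9a, Clec1a and Clec7a follow each other there in this order among the Clec genes. The files rest on an older build (mm9, per the submitters' processing notes), so the table was used only for which members neighbour each other.

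The promoters of 3 myeloid members are shown because, per leukocyte and macrophage marker level as described below, Clec5a and Clec7a were higher in both 1-week libraries than in on-DMBA replicate 2 and Clec12a was lower. Clec7a encodes Dectin-1, a receptor for beta-glucans with its own activating motif. Clec12a, of the same cluster, encodes MICL, an inhibitory receptor of myeloid cells, and Clec5a encodes MDL-1, a partner of DAP12. Each sequence runs 5′ to 3′ from 250 bases before to 50 bases after the start of the gene, from RefSeq, and capitals mark matches to any of the motifs searched.
Clec7a, GRCm38.p6 chr6:129472730-129473029, minus strand: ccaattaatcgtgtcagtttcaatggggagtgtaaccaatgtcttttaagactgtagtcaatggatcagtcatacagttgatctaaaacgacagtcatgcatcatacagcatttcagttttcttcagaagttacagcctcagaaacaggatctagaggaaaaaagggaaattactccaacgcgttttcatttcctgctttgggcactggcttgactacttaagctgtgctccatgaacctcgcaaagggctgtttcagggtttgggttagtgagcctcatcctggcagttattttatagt
Clec12a, GRCm38.p6 chr6:129349994-129350293, plus strand: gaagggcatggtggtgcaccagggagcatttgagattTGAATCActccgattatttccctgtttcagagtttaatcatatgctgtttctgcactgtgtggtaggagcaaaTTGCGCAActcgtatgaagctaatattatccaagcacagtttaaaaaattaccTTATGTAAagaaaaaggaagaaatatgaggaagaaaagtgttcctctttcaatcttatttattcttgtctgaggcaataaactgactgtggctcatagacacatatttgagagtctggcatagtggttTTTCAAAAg
Clec5a, GRCm38.p6 chr6:40585756-40586055, minus strand: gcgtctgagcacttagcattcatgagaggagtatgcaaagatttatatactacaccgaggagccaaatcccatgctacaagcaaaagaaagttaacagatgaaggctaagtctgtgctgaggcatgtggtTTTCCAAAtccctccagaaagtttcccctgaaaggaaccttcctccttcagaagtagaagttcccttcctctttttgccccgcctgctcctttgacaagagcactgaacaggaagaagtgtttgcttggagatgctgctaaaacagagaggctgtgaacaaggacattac
The motifs were searched on both strands: GAGGAAGT (PU.1), GGAAGT (the ETS core, which lies within the PU.1 motif), TTNNGNAA (C/EBP) and TGANTCA (AP-1). Of all 32851 promoters in the table, 3.2% held the PU.1 motif, 23.8% the ETS core, 40.7% the C/EBP motif and 7.81% the AP-1 motif. Among the 25 Clec genes with a promoter in the table, 0 held the PU.1 motif, 4 the ETS core, 13 the C/EBP motif and 6 the AP-1 motif. Clec7a held none of these motifs in this window, Clec12a held C/EBP and AP-1 matches, and Clec5a held a C/EBP match.

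Keratinocyte and leukocyte transcripts differed widely between libraries that carry the same sort label. Depth was 5551937 and 7662159 reads at 1 week and 9678682 and 5635945 reads on DMBA, in each group in the order replicate 1, replicate 2, which is kept throughout. Levels are given as scaled CPM, CPM that the authors took against a scaled library size. The 14 keratinocyte markers summed to 5011 and 4307 scaled CPM at 1 week, against 59617 and 591 on DMBA. The 12 of 13 macrophage markers in the table summed to 11300 and 16296 at 1 week, against 22.9 and 26845 on DMBA, and the 6 pan-leukocyte markers to 1187 and 2227 against 26.5 and 2084. On-DMBA replicate 1 held the most keratinocyte and the fewest leukocyte transcripts, while on-DMBA replicate 2, labelled with the same sort, held the fewest keratinocyte transcripts. No macrophage or pan-leukocyte marker was at 0 in any library. In bulk RNA, fewer cells of a type and less RNA per cell cannot be told apart.

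Across the Clec genes the largest contrast lay between the mice on DMBA. The 31 genes summed to 1320 and 2751 scaled CPM at 1 week, against 109.6 and 2104 on DMBA. Of these genes, 22 reached 1 scaled CPM in at least 2 libraries and were tested, and 9 did not. Among the 22, 18 were lowest in on-DMBA replicate 1, where 13 had 3 reads or fewer and 4 had none. On-DMBA replicate 2 lay above both 1-week libraries for 12 of the 22, between them for 5 and below both for 5. The median absolute log2 difference of the tested Clec genes was 4.69 between the on-DMBA replicates and 0.62 between the 1-week replicates. Over all 15419 genes tested the same medians were 1.02 and 0.51.

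**Figure D1:**
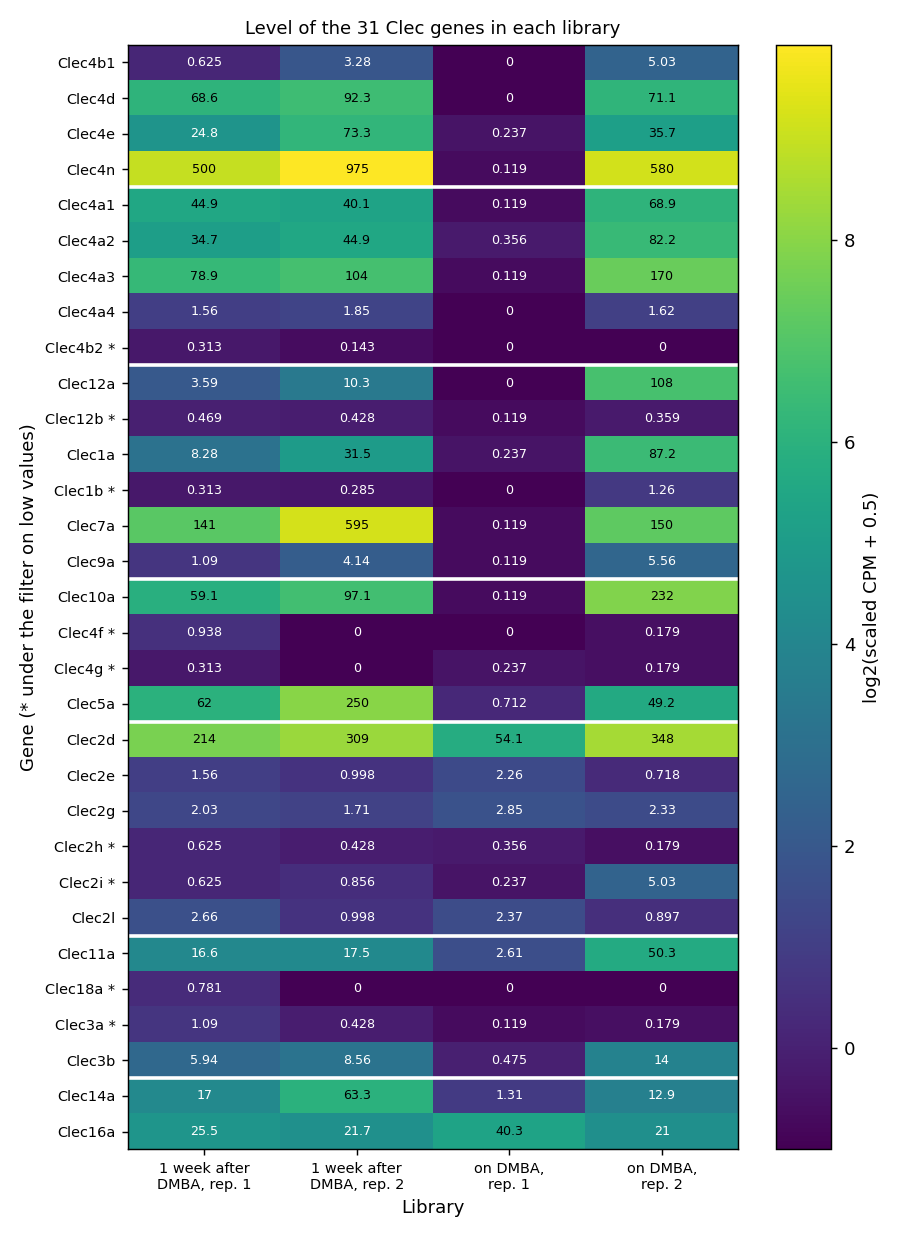
Level of each of the 31 Clec genes (rows, grouped by role, white lines between groups) in the 4 libraries (columns); the colour is log2(scaled CPM + 0.5), the printed number is scaled CPM, and an asterisk marks the 9 genes under the filter on low values. On-DMBA replicate 1 is dark in all rows of the Dectin-2 cluster and the Dectin-1 cluster, and holds Clec2d and Clec16a.

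With all 4 libraries no Clec gene passed. limma called 0 of the 22 at an adjusted p under 0.05, as it called 0% of the 15419 genes in each direction, and the smallest adjusted p of a member was 0.9997. At an unadjusted p under 0.05 there were 0 members, against 382 genes of the whole table. On recovered reads edgeR also called 0 members, and 0% of all genes, with 0 members at an unadjusted p under 0.05, and for DESeq2 both counts were 0 as well. DESeq2 called 0.104% of all genes higher and 0.0195% lower. Groups were apart for 2 of 22 members higher at 1 week (9.09%), Clec14a and Clec5a, where 14% of all genes tested did so. They were apart for 1 member lower, Clec2g (4.55%), where 9.14% of all genes did so. Both shares were below those of the whole table.

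Calls depended on which on-DMBA mouse was kept. Without on-DMBA replicate 2, limma called 15 of the 22 members higher (68.2%) and 0 lower, beside 14.3% and 10% of all genes. Without on-DMBA replicate 1 it called 0 members higher and 2 lower (9.09%), Clec12a and Clec1a, beside 2.35% and 0.999% of all genes. In each of these fits the lone on-DMBA library was assumed to vary like the 1-week libraries, so the calls do not measure the spread between on-DMBA mice. The median log2 difference of the tested members, 1 week minus on DMBA, was 1.08 in limma with all libraries, against -0.02 over all genes. On recovered reads of the same libraries the median of the members was 0.056 in edgeR and 0.0023 in DESeq2, so its size depended on the tool. In limma, leaving out on-DMBA replicate 1 gave -0.35 for the members and 0.04 for all genes. Leaving out on-DMBA replicate 2 gave 3.97 and -0.06. The keratinocyte, leukocyte and macrophage markers move with the library left out, and their part in these calls was not tested.

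**Figure D2:**
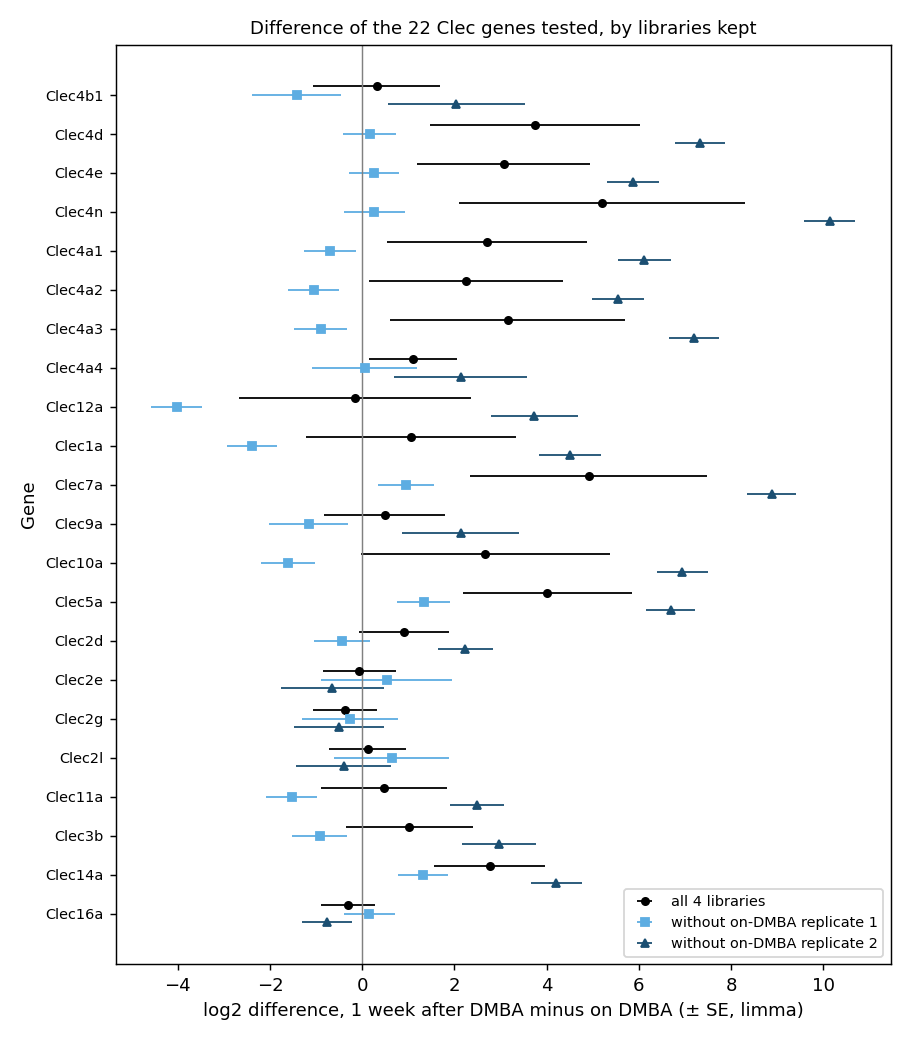
Log2 difference, 1 week after DMBA minus on DMBA, of the 22 Clec genes tested (rows), with its standard error from limma, using all 4 libraries (circles), without on-DMBA replicate 1 (squares) or without on-DMBA replicate 2 (triangles). The triangles lie right of 0 for most leukocyte receptors, while without on-DMBA replicate 1 Clec12a lies at -4.02 and Clec1a at -2.39.

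Of the activating receptors of the Dectin-2 cluster, Clec4n had the highest level per length of the Clec genes in the 3 libraries other than on-DMBA replicate 1. Clec4n encodes Dectin-2, a receptor for fungal mannans that pairs with FcR gamma. It was at 499.8 and 975 scaled CPM at 1 week, against 0.119 and 580 on DMBA, the on-DMBA replicate 1 value being 1 read. On-DMBA replicate 2 lay between the 1-week libraries, so the groups overlapped. The log2 difference was 5.20 (SE 3.10, unadjusted p = 0.151 in limma). On recovered reads it was smaller, 1.33 in edgeR and 1.27 in DESeq2.

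Clec4d and Clec4e, neighbours of Clec4n, encode MCL and Mincle, which recognise a mycobacterial glycolipid. Clec4d was at 68.6 and 92.3 scaled CPM at 1 week, against 0 and 71.1 on DMBA. Clec4e was at 24.8 and 73.3 at 1 week, against 0.237 and 35.7 on DMBA. For both, on-DMBA replicate 2 fell inside the range of the 1-week libraries. The log2 differences were 3.74 (SE 2.28, unadjusted p = 0.158 in limma) for Clec4d and 3.07 (SE 1.88, unadjusted p = 0.162) for Clec4e. Clec4b1, of the DCAR type, was at 0.625 and 3.28 at 1 week, against 0 and 5.03 on DMBA.

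Of the 4 tested DCIR-type genes of the same cluster, Clec4a1, Clec4a2 and Clec4a3 were highest in on-DMBA replicate 2. Clec4a2 encodes DCIR, which carries an inhibitory motif. It was at 34.7 and 44.9 scaled CPM at 1 week, against 0.356 and 82.2 on DMBA. Clec4a3 was at 78.9 and 104 at 1 week, against 0.119 and 169.8 on DMBA, and its log2 difference was 3.15 (SE 2.55, unadjusted p = 0.27 in limma). Both genes had near-equal 1-week libraries and on-DMBA libraries far to either side of them. Clec4a1 was at 44.9 and 40.1 at 1 week, against 0.119 and 68.9 on DMBA, with a log2 difference of 2.71 (SE 2.17, unadjusted p = 0.265). Clec4a4 was at 1.56 and 1.85 at 1 week, against 0 and 1.62 on DMBA. Of the 50-base stretches of its GENCODE M21 transcripts, 15.7% also occur in another Clec gene, mostly Clec4a2, so reads of Clec4a4 may have been shared. The same share was 8.68% for Clec4b1, 6.15% for Clec4a2 and 0 for 22 of the 31 genes.

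In the Dectin-1 cluster, Clec7a overlapped between the groups, while Clec12a was higher in on-DMBA replicate 2 than in both 1-week libraries. Clec7a was at 141 and 595 scaled CPM at 1 week, against 0.119 and 150.4 on DMBA. On-DMBA replicate 2 was just above 1-week replicate 1, so the groups overlapped, and the 1-week mice differed 4.21-fold from each other. The log2 difference was 4.91 (SE 2.57, unadjusted p = 0.112 in limma). On recovered reads it was smaller, 2.26 in edgeR and 2.20 in DESeq2.

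Clec12a was at 3.59 and 10.3 scaled CPM at 1 week, against 0 and 108 on DMBA. The 1-week libraries lay between the on-DMBA libraries, and with all 4 libraries the log2 difference was -0.15 (SE 2.51). On-DMBA replicate 2 was 15.5 times the 1-week mean. Without on-DMBA replicate 1 the log2 difference was -4.02, and without on-DMBA replicate 2 it was 3.73. Clec12a was 2.54% and 1.72% of the level of Clec7a at 1 week, against 71.5% in on-DMBA replicate 2, a ratio within each library that the library size does not enter. It could not be formed in on-DMBA replicate 1, where Clec12a had no read and Clec7a had 1.

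The summed neutrophil markers were also highest in on-DMBA replicate 2. The 9 of 10 in the table summed to 66.6 and 49.9 scaled CPM at 1 week, against 11.6 and 115 on DMBA. In on-DMBA replicate 1, 3 of them were at 0 (Elane, Camp and Ngp). The granule gene Ltf was at 1.88 and 1.85 at 1 week, against 0.119 and 20.8 on DMBA, and Retnlg, of circulating neutrophils, was at 2.03 and 3.0 against 0.119 and 24.0. Of the 9, 6 were highest in on-DMBA replicate 2 and 3 at 1 week, the chemokine receptor gene Cxcr2 among them at 12.8 and 10.4, against 8.67 and 9.87 on DMBA. The part of neutrophil transcripts in the Clec12a values was not tested.

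Clec1a encodes MelLec, a receptor for fungal melanin found on endothelial and some myeloid cells. It was at 8.28 and 31.5 scaled CPM at 1 week, against 0.237 and 87.2 on DMBA. On-DMBA replicate 2 was 4.38 times the 1-week mean, and the log2 difference without on-DMBA replicate 1 was -2.39. Without on-DMBA replicate 2 it was 4.51, and with all libraries 1.06 (SE 2.28). Clec9a, which encodes the dead-cell receptor DNGR-1 of a class of dendritic cells, was at 1.09 and 4.14 at 1 week, against 0.119 and 5.56 on DMBA. The 9 dendritic cell markers summed to 224 and 476 at 1 week, against 7.60 and 73.8 on DMBA, where 2 were at 0 in replicate 1. Most of the 1-week sum was the integrin gene Itgax, at 181 and 426 at 1 week, against 0.831 and 10.4 on DMBA. The other 8 summed to 43.1 and 49.8 at 1 week, against 6.77 and 63.4 on DMBA, but did not all go 1 way. Zbtb46, Batf3 and Cd209a were highest in on-DMBA replicate 2, as Clec9a was. Flt3 was at 2.97 and 6.28 at 1 week, against 0.475 and 2.51 on DMBA, and Ccr7 at 5.78 and 6.28 against 0.712 and 0.538. Xcr1 was highest in 1-week replicate 1, at 7.50 and 2.85 at 1 week, against 3.92 and 4.49 on DMBA. The part of dendritic cell transcripts in the Clec9a values was not tested.

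Of the other myeloid lectins, Clec5a gave groups that did not overlap, with 1 week on top. It was at 62.0 and 250.5 scaled CPM at 1 week, against 0.712 and 49.2 on DMBA. The log2 difference was 4.01 (SE 1.83, unadjusted p = 0.0777 in limma), and without on-DMBA replicate 1 it was 1.33 (SE 0.57, adjusted p = 0.307). Clec10a encodes MGL1, a galactose-type lectin of macrophages and dendritic cells. It was at 59.1 and 97.1 at 1 week, against 0.119 and 232 on DMBA, so the 1-week libraries lay between the on-DMBA libraries. Its log2 difference was 2.67 (SE 2.70) with all libraries and -1.61 (SE 0.58, adjusted p = 0.121) without on-DMBA replicate 1.

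The levels of the 16 myeloid Clec genes were divided by the summed level of the 18 pan-leukocyte and macrophage markers of the same library. Their sum was 81.9 and 123.8 per 1000 of marker level at 1 week, against 43.3 and 53.9 on DMBA. Both 1-week libraries were above both on-DMBA libraries, by a log2 ratio of means of 1.08, and the exact two-sided permutation p was 0.33, the smallest that 2 against 2 can give. The on-DMBA replicate 1 value rests on 18 Clec reads and 416 marker reads. Against Ptprc alone the sum was 2603 and 2697 per 1000 at 1 week, against 857 and 2468 on DMBA, a log2 ratio of 0.67. Without Clec4n the log2 ratio was 0.60, and against the pan-leukocyte markers alone it was 1.19.

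Within this ratio the members separated. Of the 13 tested myeloid members, 6 were higher in both 1-week libraries than in on-DMBA replicate 2, and 3 were lower in both and 4 lay with on-DMBA replicate 2 between the 1-week libraries. Clec5a was at 4.97 and 13.5 per 1000 of marker level at 1 week, against 1.70 in on-DMBA replicate 2. Clec7a was at 11.3 and 32.1 against 5.20, and Clec4n at 40.0 and 52.6 against 20.1. Clec4e, Clec4d and Clec4a4 were the other 3 that were higher. Of these 6, only Clec5a was also higher by level, without the division. Clec2d, Clec2e, Clec2g, Clec2l, Clec14a and Clec16a, not among the myeloid members, were higher per marker level too. Clec11a, Clec1a and Clec3b, the rest of the tested members outside the myeloid ones, were lower in both 1-week libraries. The 3 myeloid members that were lower were Clec12a at 0.288 and 0.554 against 3.72, Clec10a at 4.73 and 5.24 against 8.02, and Clec4a2 at 2.78 and 2.43 against 2.84. The marker sum was 12487 and 18523 scaled CPM at 1 week, against 28929 in on-DMBA replicate 2. A gene of equal level in these libraries therefore comes out higher per marker at 1 week. These are values of 3 mice, with no test, and the share over all genes was not computed. Macrophage markers made up 11300 and 16296 of the marker sum at 1 week and 26845 in on-DMBA replicate 2. The split of members was formed with this sum only, and members may fall otherwise per pan-leukocyte markers or Ptprc.

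**Figure D3:**
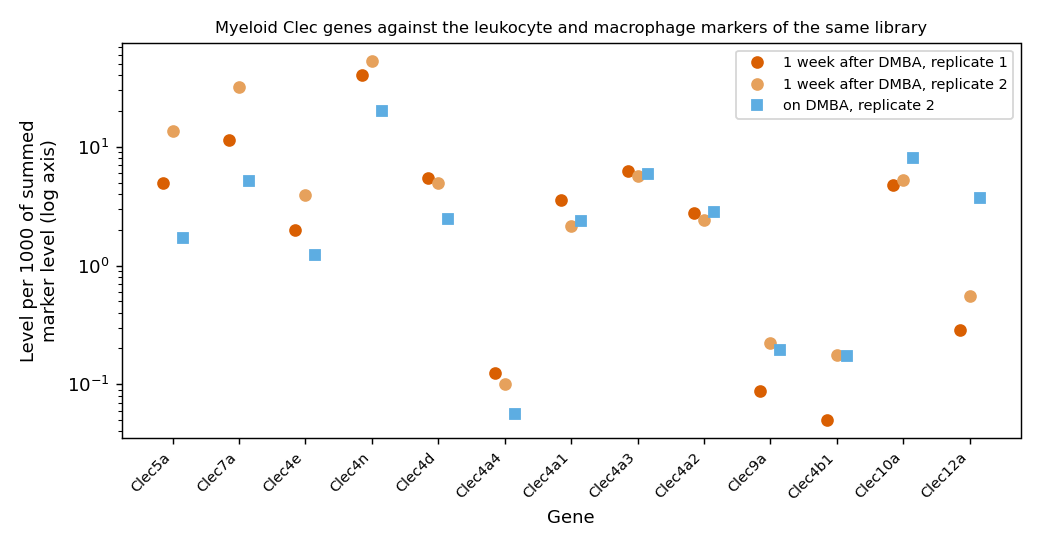
Level of the 13 tested myeloid Clec genes per 1000 of the summed pan-leukocyte and macrophage marker level of the same library (log axis), for both 1-week libraries (circles) and on-DMBA replicate 2 (squares); on-DMBA replicate 1, with 18 reads over these genes, is not drawn. Genes run by the ratio of the 1-week mean to on-DMBA replicate 2, from Clec5a at 5.44 to Clec12a at 0.113.

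The make-up of the Clec reads also differed for these members. Clec4n took 37.9% (95% Wilson interval 36.8 to 38.9) and 35.5% (34.8 to 36.1) of Clec reads at 1 week, against 0.108% (0.0191 to 0.611) and 27.6% (26.8 to 28.4) on DMBA. Clec7a took 10.7% (10.1 to 11.4) and 21.6% (21.1 to 22.2) at 1 week, against 0.108% (0.0191 to 0.611) and 7.15% (6.70 to 7.63) on DMBA. Clec12a took 0.272% (0.181 to 0.408) and 0.373% (0.297 to 0.47) at 1 week, against 0% (up to 0.414) and 5.11% (4.73 to 5.52) on DMBA. The intervals cover counting error within a library, not the spread between mice. In on-DMBA replicate 1, Clec2d and Clec16a made up 795 of the 923 Clec reads, or 86.1%.

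**Figure D4:**
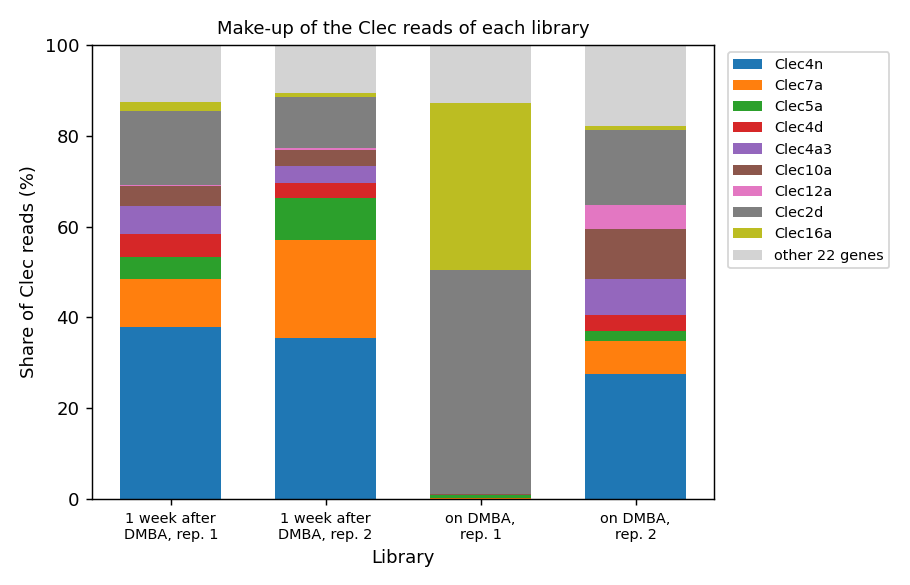
Share of each library's Clec reads (%) taken by 9 Clec genes and by the other 22 together, in the 1-week and on-DMBA libraries. Clec2d and Clec16a fill 86.1% of on-DMBA replicate 1, and Clec4n is the largest share, 27.6% to 37.9%, in the other libraries.

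Of the 31 members, 2 had over 100 reads in every library, Clec2d and Clec16a. Clec2d encodes Clr-b, a ligand of the inhibitory natural killer cell receptor encoded by Klrb1b. It was at 214 and 309 scaled CPM at 1 week, against 54.1 and 348 on DMBA, with a log2 difference of 0.90 (SE 0.98). Clec16a encodes an endosomal protein with a role in mitophagy and is no surface receptor. It was at 25.5 and 21.7 at 1 week, against 40.3 and 21.0 on DMBA, with a log2 difference of -0.30 (SE 0.59). Clec16a was thus highest in the library with the most keratinocyte transcripts, the opposite of the myeloid members.

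Of the other Clec2 genes, Clec2g encodes a ligand of the receptor encoded by Klrb1f. It was at 2.03 and 1.71 scaled CPM at 1 week, against 2.85 and 2.33 on DMBA, and these values rest on 12 to 24 reads. Clec2e was at 1.56 and 0.998 at 1 week, against 2.26 and 0.718 on DMBA. Clec2l was at 2.66 and 0.998 at 1 week, against 2.37 and 0.897 on DMBA. None of the 3 was lowest in on-DMBA replicate 1.

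Both tested secreted members were highest in on-DMBA replicate 2. Clec11a encodes a secreted growth factor of bone and blood-forming cells. It was at 16.6 and 17.5 scaled CPM at 1 week, against 2.61 and 50.3 on DMBA. Clec3b encodes tetranectin, which binds plasminogen, and was at 5.94 and 8.56 at 1 week, against 0.475 and 14.0 on DMBA. In both genes the 1-week libraries lay between the on-DMBA libraries.

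Clec14a, an endothelial membrane protein that binds the matrix protein multimerin 2 (Mmrn2), had the smallest p of the family. It was at 17.0 and 63.3 scaled CPM at 1 week, against 1.31 and 12.9 on DMBA, so that every 1-week library was above every on-DMBA library. The log2 difference was 2.76 (SE 1.21, unadjusted p = 0.0687 in limma), and without on-DMBA replicate 1 it was 1.32 (SE 0.54, adjusted p = 0.259). Its partner Mmrn2 was at 53.0 and 171 at 1 week, against 1.54 and 16.0 on DMBA. The log2 difference of Mmrn2 was 4.04 (SE 1.18, unadjusted p = 0.0175), and it passed without on-DMBA replicate 1 at 2.54 (adjusted p = 0.000459 in limma). For all 8 endothelial markers the groups did not overlap, with 1 week on top, beside 14% of all genes tested. Their sum was 672 and 1438 at 1 week, against 10.9 and 207 on DMBA, and none was at 0. The part of endothelial transcripts in the values of Clec14a was not tested. Clec1a, also known from endothelium, did not follow these markers, as its highest level was in on-DMBA replicate 2.

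Levels of different genes were compared per kilobase of merged exon (GENCODE M21). Clec4n was at 352 and 687 scaled CPM per kilobase at 1 week, against 0.0836 and 409 on DMBA, and Clec2d at 177 and 255 against 44.6 and 287. Clec7a was at 53.6 and 226 against 0.045 and 57.0, Clec4a3 at 59.5 and 78.6 against 0.0895 and 127.9, and Clec4d at 42.9 and 57.7 against 0 and 44.4. In on-DMBA replicate 2 Clec10a, at 80.0, stood above Clec7a and Clec4d, and in 1-week replicate 2 Clec5a, at 65.2, stood above Clec4d. At 1 week the range of Clec4n was above those of all the others, while the range of Clec7a overlapped those of Clec2d, Clec4a3, Clec4d and Clec5a. Without Clec2d no Clec gene passed 5 scaled CPM per kilobase in on-DMBA replicate 1, where Clec16a was at 4.81.

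The 9 genes under the filter held at most 28 reads in a library. That maximum was Clec2i, at 0.625 and 0.856 scaled CPM at 1 week, against 0.237 and 5.03 on DMBA. Clec1b encodes CLEC-2, the platelet receptor for podoplanin, and held 2 and 2 reads at 1 week, against 0 and 7 on DMBA. Its ligand gene Pdpn was at 121 and 82.2 scaled CPM at 1 week, against 66.0 and 79.0 on DMBA. The 6 platelet and megakaryocyte markers, led by Pf4, summed to 249 and 285 at 1 week, against 6.89 and 321 on DMBA, and their part in the Clec1b values was not tested. Clec12b, Clec18a, Clec2h, Clec3a and Clec4f reached 3 to 7 reads in their best library. Clec4b2 and Clec4g, a lectin of liver endothelium, did not reach 3 reads, so differences in these genes were not detectable at this depth.

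The genes through which these receptors signal were present in the same 3 libraries. Of 21 adaptors, kinases and factors, 0 passed in limma with all libraries, and the median log2 difference was 1.45, against -0.02 over all genes. Tyrobp was at 145.5 and 177 scaled CPM at 1 week, against 0.119 and 208 on DMBA, Fcer1g at 59.5 and 50.3 against 0 and 66.4, and Syk at 158 and 200.5 against 13.8 and 269. Card9 was at 34.4 and 51.1 at 1 week, against 0.119 and 47.9 on DMBA. For these 4 genes on-DMBA replicate 2 was at least as high as 1-week replicate 1. The smallest p were those of Relb and Vav3 (unadjusted p = 0.134 and 0.138 in limma). Relb, an NF-kappaB subunit, was at 62.4 and 60.6 at 1 week, against 10.3 and 47.0 on DMBA. Vav3, a signalling protein that acts after Syk, was lower at 1 week, at 66.4 and 75.6 against 261 and 94.8 on DMBA. Without on-DMBA replicate 2, 11 of the 21 were called higher and 1 lower, beside 14.3% and 10% of all genes. Without on-DMBA replicate 1 none was called, beside 2.35% and 0.999% of all genes.

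Of the 3 inhibitory phosphatases 0 passed. Ptpn6 was at 156 and 257 scaled CPM at 1 week, against 22.1 and 243 on DMBA, and Inpp5d at 205 and 232 against 21.7 and 265. Ptpn11, which most cells express, was at 136 and 169 at 1 week, against 235 and 149 on DMBA. Only Ptpn11 was highest in on-DMBA replicate 1.

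Of 14 inflammasome and cytokine genes, 0 passed and 4 were higher at 1 week without overlap of the groups (14% of all genes were), with a median log2 difference of 0.87. Il6 was at 44.4 and 37.5 scaled CPM at 1 week, against 0 and 14.0 on DMBA. Il1b was at 344 and 772 at 1 week, against 0.831 and 218 on DMBA, and Tnf at 10.9 and 11.8 against 2.85 and 5.56. The unadjusted p values in limma were 0.0566, 0.0875 and 0.0956. These genes were named for their small p, a choice that favours groups that do not overlap.

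Of the 9 ligand and partner genes 7 were tested and 0 passed with all libraries, with a median log2 difference of 1.55. Klrb1b, the receptor of Clr-b, was at 6.41 and 15.3 scaled CPM at 1 week, against 0 and 3.41 on DMBA. Vim, reported as a ligand of Dectin-1, was at 1750.4 and 1735 at 1 week, against 18.2 and 1083 on DMBA. Both were higher in every 1-week library than in every on-DMBA library. In all, 5 of the 7 tested did so, beside 14% of all genes.

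Of 52 other C-type lectin-like genes 40 were tested, 0 passed with all libraries, and the median log2 difference was 1.66. The groups did not overlap for 14 higher and 1 lower, 15 of 40, beside 14% and 9.14% of all genes. The 3 with the smallest p were the endothelial selectins Selp and Sele and the Langerhans cell lectin Cd207. Selp was at 76.1 and 114 scaled CPM at 1 week, against 0.237 and 7.72 on DMBA, Sele at 23.6 and 56.5 against 0 and 4.31, and Cd207 at 6.56 and 5.71 against 0 and 0.897. The unadjusted p values in limma were 0.0070, 0.0134 and 0.0144. Without on-DMBA replicate 1, Selp passed at a log2 difference of 3.51 and Sele at 2.95, and 4 of the 40 were called in all, each higher, beside 2.35% of all genes. Mrc1, the macrophage mannose receptor, was at 1849 and 2003 at 1 week, against 0.831 and 5029 on DMBA, and so was highest in on-DMBA replicate 2.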

How the data were processed

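The 4 libraries were made by ribosomal RNA depletion and a dUTP strand protocol, per the labels' protocols. The submitters' processing notes list CASAVA 1.8.2, TopHat2 2.1, HTSeq and edgeR 3.2.3 with the build mm9. For counting, neither annotation nor strand setting is stated in the sources used here. The authors deposited 1 table of a normalised signal, named CPM, whose columns do not share 1 total (867697 for 1-week replicate 1), so it is called scaled CPM. All values (100%, tolerance 0.01 reads) were whole multiples of the worth of 1 read, and so reads could be recovered. A floor of 3 reads is 0.469 and 0.428 scaled CPM at 1 week and 0.356 and 0.538 on DMBA, for counting error only.

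Plain CPM had been assumed in the design, and its log-scale test was kept. The filter left 15419 genes, which limma 3.58.1 (R 4.3.3, eBayes with a trend) tested on log2(scaled CPM + 0.5). P-values are two-sided and adjusted by Benjamini-Hochberg over these genes at a threshold of 0.05. With all 4 libraries they measure the spread between 2 mice a group, moderated over genes. With a library left out, 1 group is a single mouse, so those p-values rest on a spread shared over genes. They do not measure agreement between mice of that group. Low genes have their fold changes understated on this scale. Alternatives were other pseudocounts (0.1, 1), filters (none, 5 scaled CPM), scalings (median ratio, quantile) and moderations (robust, no trend), a replicate block, each library left out, and edgeR 4.0.16 and DESeq2 1.42.0 on recovered reads. Code was tested on simulated data. The members, lists and tests were chosen with earlier results of these data known. Named were all tested members, others with 3 reads or more in a library, and the 3 smallest p of each pathway list, of which 1 gene is not reported here. Tyrobp, Fcer1g, Syk, Card9, Pdpn, Mrc1, Ltf, Retnlg and Cxcr2 were added after their values were seen. So were the dendritic cell markers Flt3, Ccr7, Xcr1, Zbtb46, Batf3 and Cd209a. All 31 members matched the RefSeq gene table.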

Additional observations from a re-analysis of the deposited data

How the results depend on the processing

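Over all genes, limma calls ranged from 0 to 2212 higher and from 0 to 1549 lower when each library was left out in turn, and DESeq2 called 16 higher and 3 lower. Leave-one-out counts ranged from 0 to 15 for Clec genes higher and from 0 to 2 for Clec genes lower, with the 15 without on-DMBA replicate 2 and the 2 without on-DMBA replicate 1. Counted in either direction, the ranges were 0 to 12 of 21 adaptors and kinases and 0 to 2 of 3 phosphatases. They were 0 to 8 of 14 inflammasome and cytokine genes, 0 to 3 of 7 ligands and partners, and 0 to 26 of 40 other C-type lectin-like genes. The median log2 difference of the Clec genes ran from -0.35 to 3.97 when a library was left out, and a filter of 5 scaled CPM gave 2.69. With all libraries edgeR gave 0.056 and DESeq2 0.0023. Of the 22 tested Clec genes, 12 changed direction when on-DMBA replicate 1 was dropped and 2 when on-DMBA replicate 2 was. Dropping 1-week replicate 1 turned 2 of them, and dropping 1-week replicate 2 turned 3. Pseudocount 1, median ratio scaling, no filter and both other moderations turned no Clec gene. The cause of these changes was not tested.

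Replicate numbers mark different mice, and the deviations of same-numbered libraries correlated at 0.02. With the replicate number as a block, 285 genes (1.85%) were called higher and 3 (0.0195%) lower. The block called 5 Clec genes higher (Clec4a3, Clec4d, Clec4n, Clec5a and Clec7a). In either direction it called 4 adaptors and kinases, 2 cytokine genes, 1 partner and 5 other lectin-like genes.

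Leave-one-out log2 differences ran from -1.61 to 6.95 for Clec10a, -1.53 to 2.50 for Clec11a, -4.02 to 3.73 for Clec12a, -0.76 to 0.16 for Clec16a, and -2.39 to 4.51 for Clec1a. They ran from -0.44 to 2.24 for Clec2d, -0.65 to 0.53 for Clec2e, -0.42 to 0.66 for Clec2l, -0.92 to 2.97 for Clec3b, and -0.69 to 6.12 for Clec4a1. They ran from -1.05 to 5.55 for Clec4a2, -0.90 to 7.20 for Clec4a3, -1.42 to 2.04 for Clec4b1, and -1.16 to 2.14 for Clec9a. For Clec10a the count tests, edgeR first, gave -0.58 and -0.64. They gave -0.62 and -0.67 for Clec11a, -1.17 and -1.23 for Clec1a, and -0.055 and -0.11 for Clec4a2. They gave -0.36 and -0.45 for Clec4b1 and -0.12 and -0.19 for Clec9a, and DESeq2 gave -0.047 for Clec3b. Without a change of direction, the count tests gave smaller values than limma for several genes. These were 0.10 and 0.052 for Clec4a3, 0.31 and 0.26 for Clec4a1, and 1.17 and 1.12 for Clec4d. For Clec4e they were 1.43 and 1.37, for Clec5a 2.62 and 2.56, and for Clec14a 2.48 and 2.42. Quantile scaling gave -0.45 for Clec4b1, -0.42 for Clec9a and -0.43 for Clec2l, and a pseudocount of 0.1 gave 0.92 for Clec12a. The log2 ratio of the summed myeloid Clec level to its markers stayed above 0, between 0.75 and 1.35, when each library was left out.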

Other observations

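The other marker lists, in summed scaled CPM, were as follows. The 8 fibroblast markers, led by Col3a1, summed to 46164 and 48728 at 1 week, against 224 and 40796 on DMBA. The 5 pericyte markers, led by Pdgfrb, summed to 826 and 1224 against 59.0 and 389, and the 10 T and NK cell markers, led by Cd4, to 61.1 and 83.6 against 2.02 and 33.9. The 4 B cell markers summed to 7.19 and 6.13 at 1 week, against 2.26 and 22.6 on DMBA, and the 6 mast cell markers to 13.0 and 43.1 against 0.831 and 7.90. The 3 Langerhans cell markers, which include the epithelial gene Epcam, summed to 57.7 and 153 at 1 week, against 138 and 10.1 on DMBA.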
